A study of Mus musculus with 6 samples.

Results

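Red cell genes were measured in RNA from LSK cells, the bone marrow gate (no lineage markers, Sca-1 and c-Kit present) that is enriched for blood stem cells and early progenitors. The set was fixed by name as 9 genes: the adult alpha globins Hba-a1 and Hba-a2, the adult beta globins Hbb-bs and Hbb-bt, the membrane genes Slc4a1, Epb42 and Ermap, the alpha globin chaperone Ahsp and the erythroid transcription factor Klf1. The rule uses names and no measured value, although the set was proposed with earlier results of these data known. Ensembl identifiers were matched to symbols for 8 of them, among 54532 genes in the deposited tables. All 8 passed the filter on low counts and were tested among 14608 genes. Ahsp was not analysed here.

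The genotype labels give 2 groups. Both are labelled Phf6fl-R274X/Y, male mice whose X-linked Phf6 gene is a floxed R274X allele, so the controls carry that allele too. The 3 control libraries have no Cre, and the 3 R274X libraries carry Vav1-Cre in addition, a transgene driven by a promoter active across blood cells. Floxed mice with Vav1-Cre but an unmutated Phf6, or wild-type mice, were not analysed here, so an effect of the Cre and an effect of the mutation cannot be told apart. The labels give no ages, and they do not say that each library came from a separate animal, and p-values here therefore rest on library-to-library spread that may be technical.

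Red cells carry oxygen on hemoglobin, a tetramer of alpha and beta globin chains around heme, and their precursors switch on the globin genes far above almost every other gene as they mature. Klf1 is a zinc finger factor that binds CACCC-type motifs and activates beta globin and many membrane genes, and Gata1 is its main partner in the lineage. Slc4a1 is band 3, the anion exchanger that anchors the membrane to the spectrin skeleton. Epb42 is protein 4.2, which binds band 3, and Ermap is a surface protein of the immunoglobulin superfamily that carries the Scianna blood group. The lineage antibodies used to define LSK cells usually include one against late erythroid cells.

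The copies of each globin are near-identical, which limits how reads can be assigned to them. The alpha pair shares a coding sequence of 429 bases with 1 difference, C381T (the Hba-a1 base first, counted from 1 at the A of the start codon), in the third base of codon 127. The beta pair shares 444 coding bases with 1 difference, C417T (the Hbb-bs base first), in the third base of codon 139. The 58 coding bases around each difference, all in exon 3, are shown here because reads from the rest of the coding sequence carry no base that separates the copies. The capital marks the differing base, and each sequence is written 5′ to 3′ on the coding strand from GRCm38: Hba-a1 at chr11:32284313-32284370 on the plus strand, Hba-a2 at chr11:32297130-32297187 on the plus strand, Hbb-bs at chr7:103826665-103826722 on the minus strand and Hbb-bt at chr7:103812656-103812713 on the minus strand.
Hba-a1: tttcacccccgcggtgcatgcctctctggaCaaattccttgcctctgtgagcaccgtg
Hba-a2: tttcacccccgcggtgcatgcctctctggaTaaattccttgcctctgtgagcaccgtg
Hbb-bs: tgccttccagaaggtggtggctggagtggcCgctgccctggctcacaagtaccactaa
Hbb-bt: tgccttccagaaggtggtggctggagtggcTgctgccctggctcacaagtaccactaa
For each globin, 1 annotated transcript was used. Of the stretches of 50 bases in that of Hba-a2, 86.9% also occur in that of Hba-a1. The share was 67.5% for Hba-a1 in Hba-a2, 65.8% for Hbb-bs in Hbb-bt and 58.3% for Hbb-bt in Hbb-bs. The sources used here do not give how such reads were assigned, so values for a single copy are uncertain and the sum of each pair is given beside them.

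Promoter stretches are shown for 3 globins and Klf1 because Klf1 acts through CACCC-type motifs at the beta globin genes. In the RefSeq windows of 250 bases upstream of a gene's start (GRCm38.p6), the motif CCNCNCCC, a loose form of the CACCC box, was searched on both strands. So were GATAA, the core of Gata1 sites, the CCAAT box and the TATAA box. Windows were matched for 7 genes: Hba-a1, Hba-a2, Hbb-bs, Hbb-bt, Epb42, Ermap and Klf1. In the lines below, capitals mark matches to CCNCNCCC, the CCAAT box and the TATAA box in either orientation, with TTATC, the other strand of GATAA, also in capitals for Klf1. Hbb-bs is shown at chr7:103827929-103828048 (minus strand), Hbb-bt at chr7:103813999-103814098 (minus strand), Hba-a2 at chr11:32296372-32296488 (plus strand) and Klf1 at chr8:84901832-84901927 (plus strand).
Hbb-bs: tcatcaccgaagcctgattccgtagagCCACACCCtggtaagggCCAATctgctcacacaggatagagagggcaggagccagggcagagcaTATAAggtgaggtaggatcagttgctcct
Hbb-bt: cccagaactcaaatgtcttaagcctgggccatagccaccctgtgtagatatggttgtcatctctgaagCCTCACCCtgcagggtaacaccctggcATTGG
Hba-a2: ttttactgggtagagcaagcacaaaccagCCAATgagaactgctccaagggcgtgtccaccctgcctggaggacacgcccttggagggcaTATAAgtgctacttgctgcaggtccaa
Klf1: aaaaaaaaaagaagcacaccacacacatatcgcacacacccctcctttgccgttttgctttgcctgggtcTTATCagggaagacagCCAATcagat
The CCNCNCCC motif was found in 2 of the 7 windows, Hbb-bs at 93 and Hbb-bt at 107 bases upstream, and in 45.9% of 32851 windows of the same length. GATAA was found in 7 of 7 (22.6% of all windows), CCAAT in 6 of 7 (33.8%) and TATAA in 6 of 7 (22.8%). The TATAA matches of Epb42 and Ermap and the CCAAT match of Ermap lay on the opposite strand only. The Hbb-bt stretch shown ends 76 bases upstream, short of its forward CCAAT at 75 and TATAA at 28 bases upstream. Windows of Hba-a1 and Hba-a2 share a run of 297 of 300 bases, so these counts do not rest on 7 separate windows. A match is only a stretch of letters, and binding was not measured here.

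Libraries held 15406314 to 18106065 counts. The targeted gene, Phf6, was 3.51-fold lower with Vav1-Cre (log2 −1.81, SE 0.123, adjusted p = 6.67e-06, edgeR's quasi-likelihood test with Benjamini-Hochberg adjustment), at 29.6 to 33.5 CPM (the count relative to a library size scaled by TMM) in controls and 8.29 to 10.3 CPM in R274X libraries. In that test over all genes, 10.1% were higher and 7.89% lower in R274X libraries, and 56.0% of the genes past the threshold were higher. The share that was higher became 45.9% with upper-quartile scaling and 36.7% with quantile normalization of FPKM. Control 2 stood apart from the other controls in the erythroid genes, with the lowest summed globins (Hba-a2 alone was lowest in control 3) and the highest Klf1, Ermap, Epb42 and Gata1 of the 3 controls. The share of immunoglobulin counts, from B lineage cells, was 0.293% to 1.177% in controls and 4.447% to 7.95% in R274X libraries.

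The 4 adult globins together took a larger share of the counts in every R274X library than in any control. They made up 0.115%, 0.0817% and 0.121% of all counts in controls 1, 2 and 3, and 0.280%, 0.167% and 0.245% in R274X libraries 1, 2 and 3. The 95% Wilson interval, which covers counting error alone since no molecular identifiers were used, was 0.119% to 0.122% for control 3 and 0.165% to 0.169% for R274X 2, the closest pair across the groups. The mean share was 0.106% ± 0.0210 in controls and 0.230% ± 0.0579 in R274X libraries (SD, n = 3), a ratio of 2.18. The exact permutation test, two-sided, gave p = 0.1, and 3 against 3 libraries cannot give a smaller one. With immunoglobulin counts taken out of the total, the ratio was 2.31. In bulk RNA, a change in the number of cells of a type (fewer or more cells) and a change in RNA per cell cannot be told apart.

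The alpha globins rose. Summed over Hba-a1 and Hba-a2, alpha globin stood at 529, 354 and 526 CPM in controls 1, 2 and 3 and at 1402, 830.2 and 1139 CPM in R274X libraries 1, 2 and 3. The log2 difference was 1.26 (SE 0.272), 2.39-fold, with an adjusted p of 0.0418 in edgeR's quasi-likelihood test with Benjamini-Hochberg adjustment. The beta globins, Hbb-bs and Hbb-bt summed, rose by a similar size. Their level was 574, 399 and 622 CPM in the controls and 1652, 939.7 and 1386 CPM in the R274X libraries, a log2 difference of 1.32 (SE 0.292), 2.49-fold, adjusted p = 0.0464 by the same test. In both pairs control 2 was the lowest library and R274X 1 the highest, and the groups did not overlap. These calls rested on individual libraries: leaving out each in turn gave adjusted p-values of 0.0145 to 0.105 for alpha and 0.0122 to 0.13 for beta, past the threshold only without R274X 2.

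For single copies, Hba-a1 (ENSMUSG00000069919, protein-coding, chromosome 11, 32283511 to 32284465, plus strand, GRCm38) was the alpha copy with more assigned counts. It was at 499, 336 and 513 CPM in controls 1, 2 and 3. In R274X libraries 1, 2 and 3 it was at 1306, 752 and 1060 CPM. All R274X values lay above all control values, and the groups did not overlap. The log2 difference was 1.21 (SE 0.286), 2.31-fold, with an adjusted p of 0.0538, short of the threshold of 0.05. It passed in 6 of 12 other processing settings and in 1 of 6 fits that left out a library, the one without R274X 2.

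Hba-a2 (ENSMUSG00000069917, protein-coding, chromosome 11, 32296489 to 32297298, plus strand) was the alpha copy with fewer assigned counts. It was at 30.7, 17.9 and 12.8 CPM in the controls and at 96.1, 78.3 and 78.4 CPM in the R274X libraries. The R274X values lay close together, control 1 was the highest control, and the groups did not overlap. The log2 difference was 2.04 (SE 0.372), 4.12-fold, adjusted p = 0.0314 (edgeR's quasi-likelihood test). The gene was also past the threshold in 12 of 12 other processing settings and in 2 of 6 fits that left out a library.

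Hbb-bs (ENSMUSG00000052305, protein-coding, chromosome 7, 103826534 to 103828096, minus strand) was the beta copy with more assigned counts. It was at 465, 326 and 505 CPM in controls and at 1371, 803 and 1172 CPM in R274X libraries. The groups did not overlap. It was higher by 1.37 on the log2 scale (SE 0.281), 2.58-fold, adjusted p = 0.0376 in edgeR's quasi-likelihood test. The call held in 10 of 12 other settings and in 1 of 6 fits that left out a library, the one without R274X 2.

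Hbb-bt (ENSMUSG00000073940, protein-coding, chromosome 7, 103812524 to 103813996, minus strand) was the beta copy with fewer assigned counts. It was at 109, 73.6 and 118 CPM in controls and at 281, 137 and 214 CPM in R274X libraries. R274X 2, the lowest of its group, lay above control 3, the highest control, so the groups did not overlap. The log2 difference was 1.07 (SE 0.354), 2.10-fold, adjusted p = 0.124, short of the threshold. It passed in 2 of 12 other settings, DESeq2 and the robust option off, and in 0 of 6 fits that left out a library.

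**Figure D1:**
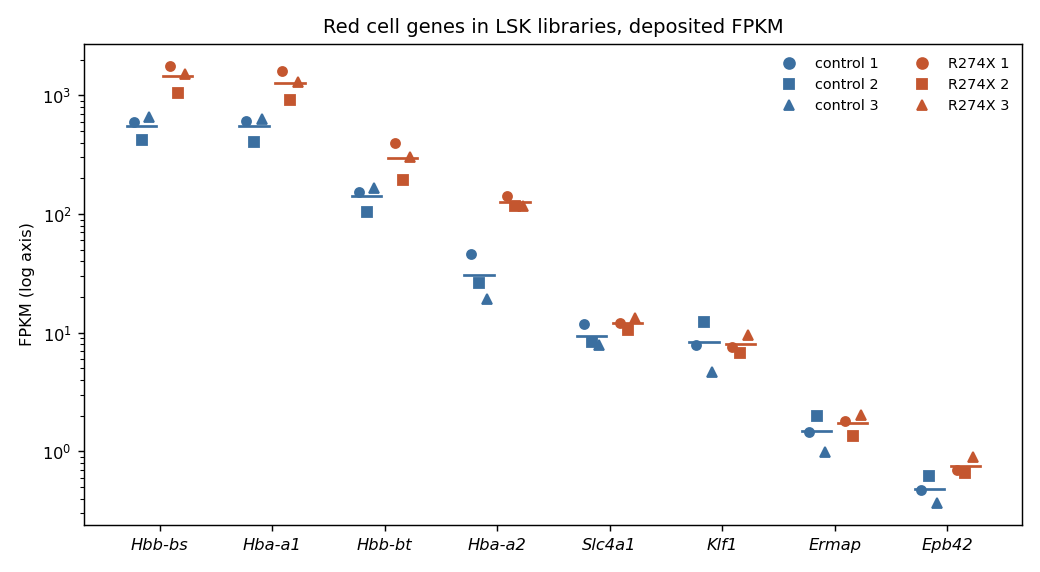
Deposited FPKM (log axis) of the 8 genes in the 3 control libraries (blue) and 3 R274X libraries (orange); symbols mark the library and lines the group mean. Globin points of the R274X libraries lie above those of the controls, while those of Slc4a1, Klf1 and Ermap overlap.

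Slc4a1 (ENSMUSG00000006574, protein-coding, chromosome 11, 102348824 to 102366203, minus strand), the anion exchanger, was at 58.9, 41.4 and 39.0 CPM in controls and at 59.5, 51.5 and 65.7 CPM in R274X libraries. Control 1 lay within the R274X range, so the groups overlapped. The difference was 0.34 on the log2 scale (SE 0.173), with a 95% interval of −0.07 to 0.75, which is a fold of 0.956 to 1.68, and an adjusted p of 0.225. Without control 1, Slc4a1 came out higher by 0.54 with an adjusted p of 0.0159 in edgeR's quasi-likelihood test, and with no count filter its adjusted p was 0.00769.

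Epb42 (ENSMUSG00000023216, protein-coding, chromosome 2, 121017891 to 121037072, minus strand), protein 4.2, was among the lowest of the set at 37 to 72 counts a library. It was at 2.59, 3.38 and 1.99 CPM in controls and at 3.82, 3.57 and 4.82 CPM in R274X libraries. The groups did not overlap, with R274X 2 just above control 2. The difference was 0.61 on the log2 scale (SE 0.275, 95% interval 0.02 to 1.21), adjusted p = 0.143, short of the threshold.

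Ermap (ENSMUSG00000028644, protein-coding, chromosome 4, 119175457 to 119190011, minus strand) was at 7.78, 10.8 and 5.28 CPM in controls and at 9.51, 7.21 and 10.7 CPM in R274X libraries. Control 2 was the highest of all 6, and control 3 the lowest. The difference was 0.20 on the log2 scale (SE 0.252, 95% interval −0.35 to 0.76), adjusted p = 0.624. Its sign turned to −0.03 without control 3.

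Klf1 (ENSMUSG00000054191, protein-coding, chromosome 8, 84901928 to 84905291, plus strand) was at 12.2, 19.1 and 7.11 CPM in controls and at 11.7, 10.4 and 14.6 CPM in R274X libraries. The R274X values all lay inside the control range. The difference was −0.06 on the log2 scale (SE 0.377), with a 95% interval of −1.01 to 0.89, or a fold of 0.497 to 1.85, and a change within that interval was not detectable in these libraries. The sign was positive in 6 of 18 alternatives, at 0.33 without control 2.

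In all, 2 of the 8 genes were higher and 0 were lower (adjusted p of 0.05, against 10.1% and 7.89% of all tested genes). With DESeq2, 4 genes were higher, all of them globins, against 10.3% of genes tested there. The groups did not overlap, with R274X higher, for 5 of the 8, the 4 globins and Epb42, against 18.9% of all tested genes. The 4 globins are 2 pairs of near-identical copies and varied together, so these counts do not rest on 4 separate signals. The median log2 difference of the 8 was 0.84, beside −0.02 for all tested genes. Leaving out control 2, R274X 1 or R274X 3 left 0 genes past the threshold, and leaving out control 3 left 1, Hba-a2.

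Hba-a2 had a larger log2 difference than all but 2.05% of tested genes. The share of genes with a larger difference was 3.68% for Hbb-bs, 4.29% for Hba-a1, 4.92% for Hbb-bt, 9.15% for Epb42, 16.3% for Slc4a1, 25.4% for Ermap and 55.8% for Klf1. The order from globins to membrane genes to Klf1 is a description of these 8 values.

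**Figure D2:**
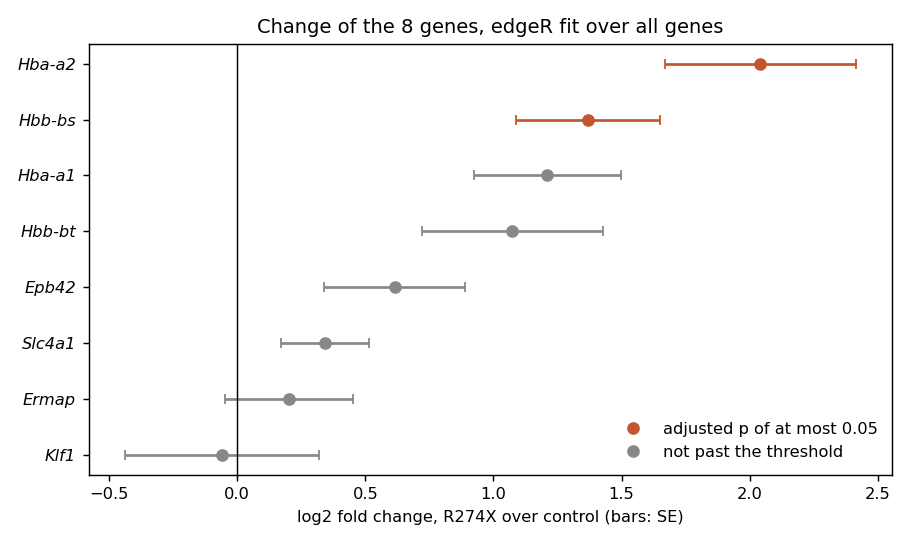
Log2 fold change of the 8 genes, R274X over control, with SE bars, from the edgeR fit over all tested genes; orange marks an adjusted p of at most 0.05. The globins lie between 1.07 and 2.04, Epb42, Slc4a1 and Ermap between 0.20 and 0.61, and Klf1 at −0.06.

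Levels between genes were compared on FPKM, a value per length that the authors had deposited. Hbb-bs led at 558 ± 124 FPKM in controls and 1448 ± 373 in R274X libraries (SD, n = 3), and Hba-a1 followed at 549 ± 123 and 1276 ± 340, with ranges that overlapped those of Hbb-bs in both groups. Hbb-bt came next at 141 ± 33.6 and 299 ± 102 FPKM and Hba-a2 at 30.4 ± 13.7 and 126 ± 15.1 FPKM. Slc4a1 (9.41 ± 2.2 FPKM in controls, 12.005 ± 1.47 in R274X libraries) and Klf1 (8.27 ± 3.84 and 7.997 ± 1.42) overlapped in controls and not in R274X libraries. Ermap was at 1.48 ± 0.506 and 1.72 ± 0.336 FPKM, and Epb42 was lowest at 0.485 ± 0.124 and 0.749 ± 0.123. The order of the 8 genes was the same in both groups. The FPKM of Hba-a1 rests on a length of 812 bases, while the annotated transcript used here is 699 bases long. These lengths were 667 and 554 bases for Hba-a2, 768 and 628 for Hbb-bs, and 703 and 703 for Hbb-bt. The FPKM of Hba-a1, Hba-a2 and Hbb-bs is therefore low relative to one computed on that transcript, and that of Hbb-bt is not.

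Within a library, ratios do not depend on scaling between libraries. Of the 9 ratios computed, beta to alpha globin counts was 1.09, 1.13 and 1.18 in controls and 1.18, 1.13 and 1.22 in R274X libraries, and the groups overlapped (exact two-sided permutation p = 0.4, adjusted 0.45). Hba-a2 made up 5.8%, 5.06% and 2.43% of alpha globin counts in controls and 6.85%, 9.43% and 6.88% in R274X libraries. The Hbb-bt share of beta globin counts was 19.0%, 18.4% and 18.9% in controls and 17.0%, 14.6% and 15.4% in R274X libraries. Neither the Hba-a2 share nor the Hbb-bt share overlapped between groups (exact two-sided permutation p = 0.1 for each, the smallest possible, adjusted 0.18). In the R274X libraries the Hba-a2 share was the larger and the Hbb-bt share the smaller. Both shares rest on the authors' assignment of reads between near-identical copies.

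**Figure D3:**
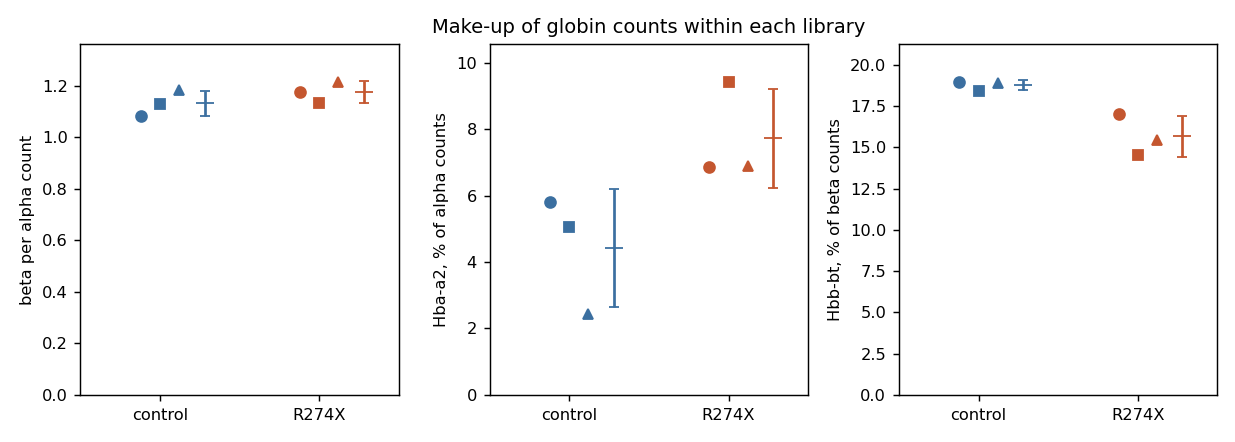
Beta to alpha globin count ratio, Hba-a2 as percent of alpha globin counts, and Hbb-bt as percent of beta globin counts in each library, with mean and SD (n = 3) beside the points. The first overlaps between groups, and the Hba-a2 and Hbb-bt shares do not.

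Globin counts per Slc4a1 count were 18.8, 18.2 and 29.5 in controls and 51.3, 34.4 and 38.4 in R274X libraries, with no overlap (exact permutation p = 0.1, adjusted 0.18). The ratio to Klf1 counts was 90.6, 39.5 and 161.5 against 260.9, 169.4 and 172.4, with no overlap either (the same p-values). Per count of Ermap it was 142, 69.9 and 218 against 321, 246 and 236, again without overlap. The ratio to Epb42 counts overlapped (exact permutation p = 0.3, adjusted 0.45). Against Alas2, the enzyme of the first step of heme synthesis in red cells, the ratio was 44.5, 43.5 and 54.1 in controls and 48.8, 39.2 and 38.8 in R274X libraries, and the groups overlapped (exact permutation p = 0.4, adjusted 0.45).

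The genes varied together to different degrees over the 6 libraries, which share their depth and groups, so the correlations of log2 CPM that follow are descriptions. Hba-a1 correlated at 1.0 (rounded) with Hbb-bs, 0.99 with Hbb-bt, 0.87 with Hba-a2, 0.73 with Slc4a1, 0.6 with Epb42, 0.21 with Ermap and −0.15 with Klf1. Klf1 correlated at 0.93 with Ermap and 0.64 with Epb42. Among 10653 genes with a mean of at least 5 CPM that are neither members nor immunoglobulin genes, those most like the summed globins included Mrps15 (r = 0.993), Cycs (0.993), Lyn (0.990) and Trappc2l (0.989), and 105 genes reached 0.95. Those most like Klf1 were Arsa (0.995), Prdm10 (0.992), Leo1 (0.988), Dnm2 (0.986) and Tgtp2 (0.983), and 23 genes reached 0.95.

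**Figure D4:**
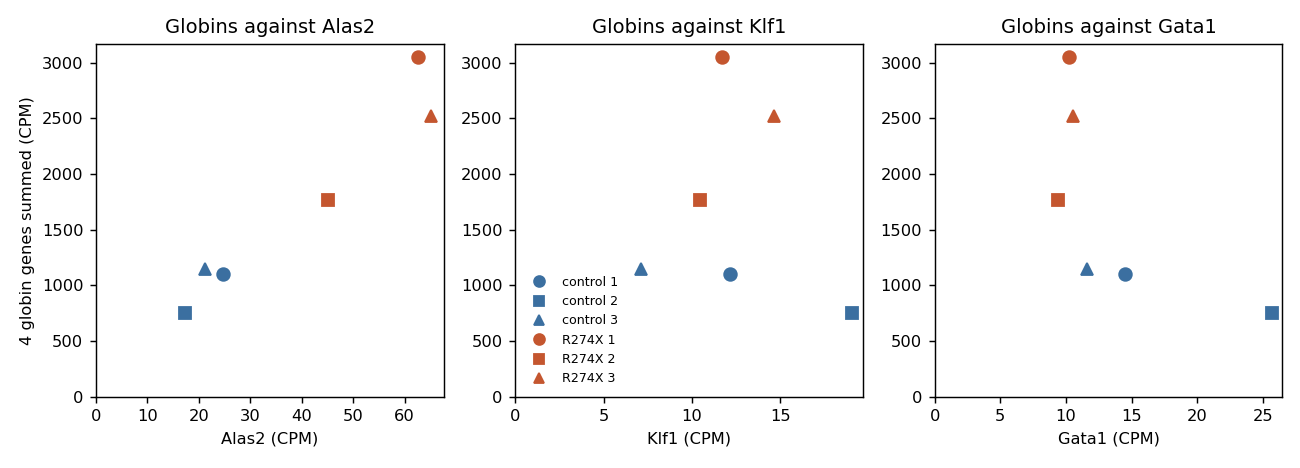
Summed CPM of the 4 adult globins against CPM of Alas2, Klf1 and Gata1 in the 6 libraries. All R274X libraries lie above all controls in both Alas2 and globins, the Klf1 values of the groups overlap, and control 2, with the highest Klf1 and Gata1, has the lowest summed globins.

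Other globin genes were nearly silent. Of 12 listed, 10 were matched and 1 passed the filter, Hbq1b, a theta globin gene of the alpha cluster, at 0.953, 0.482 and 0.646 CPM in controls and 2.33, 1.46 and 1.14 CPM in R274X libraries. Its log2 difference was 1.23 (SE 0.445, adjusted p = 0.0726, edgeR), short of the threshold. The embryonic genes gave 3 counts in all for Hbb-y, 1 for Hba-x and 0 for Hbb-bh1.

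The rest of the red cell program was compared through lists of known genes. Of 14 heme synthesis genes tested, 2 were higher and 0 lower, with a median log2 difference of 0.10. Alas2 rose from 24.8, 17.3 and 21.2 CPM to 62.5, 45.1 and 65.2 CPM, a log2 difference of 1.45 (SE 0.176), 2.73-fold, adjusted p = 0.00191 (edgeR's quasi-likelihood test), past the threshold in all 6 fits with a library left out. Tmem14c, a transporter of heme precursors, rose by 0.37 (adjusted p = 0.00948), a call lost without control 1. Under quantile normalization of FPKM its sign turned. Fech, which inserts the iron into heme, did not pass (0.19, adjusted p = 0.144).

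Of 15 membrane skeleton genes, 2 were higher and 0 lower, with a median of 0.03. Mpp1, a scaffold of the red cell membrane, rose by 0.57 (adjusted p = 0.000946), and Actb by 0.31 (adjusted p = 0.0252, with the opposite sign under quantile normalization of FPKM). The Mpp1 call held in all 6 fits with a library left out and that of Actb in 1, the one without R274X 2, and in 6 of 12 other settings. Without R274X 3, 1 gene of this list was lower. The beta spectrin gene Sptb (−0.18, adjusted p = 0.674), the ankyrin gene Ank1 (−0.16, adjusted p = 0.727) and protein 4.1, Epb41 (−0.20, adjusted p = 0.104), did not pass, and neither did Tpm3 (0.12, adjusted p = 0.261).

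Of 20 tested genes on the red cell surface list, 3 were higher and 3 lower, with a median of −0.05. The iron genes split. Trf, transferrin, a secreted protein that was kept on this list, was higher by 1.52 (adjusted p = 0.000849). Tfrc, the transferrin receptor, was higher by 0.52 (adjusted p = 0.00532), while Tfr2, the second transferrin receptor, was lower by 1.01 (adjusted p = 0.000474). Gypc, a glycophorin, was lower by 0.44 (adjusted p = 0.00339). Slc29a1, a nucleoside transporter, was higher by 0.39 (adjusted p = 0.0109) and Bcam lower by 1.09 (adjusted p = 0.00676); both were named after their values were seen. The Slc29a1 call was lost without control 1, control 2 or R274X 2.

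Of 14 red cell enzyme genes, 4 were higher and 1 lower, with a median of 0.11. Bpgm, which makes 2,3-bisphosphoglycerate, was higher by 0.62 (adjusted p = 0.0011), Blvrb by 0.59 (adjusted p = 0.00532) and Cat, catalase, by 0.44 (adjusted p = 0.014). Nudt4, named after its value was seen, was higher by 0.32 (adjusted p = 0.0285). Car2, a carbonic anhydrase, was lower by 0.49 (adjusted p = 0.00246), and Car1 was at −0.75 with an adjusted p of 0.396, with control 2 at 91.9 CPM and the other 5 libraries at 27.5 to 42.7 CPM. Bpgm, Blvrb and Car2 kept their calls in all 6 fits with a library left out, Cat in 2 (without control 3 or R274X 3) and Nudt4 in 3 (without control 1, R274X 1 or R274X 3). Cat passed in 8 of 12 other settings and Nudt4 in 6. Without control 2 or R274X 2, 2 enzyme genes were higher.

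Of 22 genes of late erythroid maturation, 4 were higher and 0 lower, with a median of 0.16. Tent5c, a poly(A) polymerase, rose by 1.55 (adjusted p = 0.000158), Isg20 by 0.66 (adjusted p = 0.000751) and Ube2l6 by 0.46 (adjusted p = 0.00185). Without control 2, 3 genes of this list were higher. Which cells in the libraries these transcripts came from was not tested. Of 17 erythroid progenitor markers, 2 of them Ermap and Klf1, 2 were higher (Tfrc and Cd36, by 2.21 with an adjusted p of 0.0304) and 1 was lower (Car2), with a median of −0.04. The Cd36 call held in 1 of 6 fits with a library left out, the one without R274X 3, and was lost with limma-voom and with FPKM and no filter. Epor, the erythropoietin receptor, differed by 0.03 (adjusted p = 0.928), and Rhd by 0.50 (adjusted p = 0.104).

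Among 22 regulators of the lineage, 0 were higher and 9 lower, with a median of −0.27. Genes of the LSK gate were lower too, 7 of 10 lower and 1 higher, with a median of −0.62. Why either set was lower was not tested. Tal1, a partner of Gata1, was lower by 0.92 (adjusted p = 0.00068), Cbfa2t3, its corepressor, by 0.88 (adjusted p = 0.000156), Lmo2, the bridge of their complex, by 0.54 (adjusted p = 0.000833), and Foxo3 by 0.51 (adjusted p = 0.00168). Gata1 was at 14.5, 25.7 and 11.6 CPM in controls and at 10.2, 9.39 and 10.5 CPM in R274X libraries, a log2 difference of −0.78 (adjusted p = 0.122). Leaving out a library left 5 to 10 regulators lower, with 5 without control 1, R274X 1 or R274X 2. Over all these lists without the members, 16 of 111 genes were higher and 13 lower, with a median of −0.02. Among all tested genes, 10.1% were higher and 7.89% lower, with a median of −0.02 as well.

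**Figure D5:**
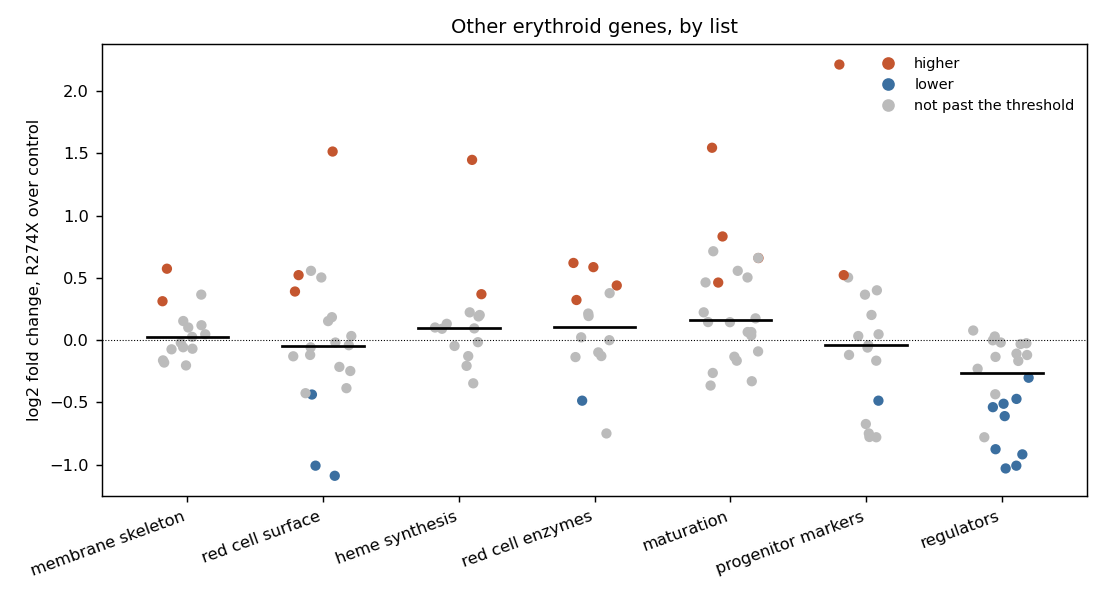
Log2 fold change, R274X over control, of the tested genes of 7 lists, with the list median as a bar; orange and blue mark an adjusted p of at most 0.05 higher or lower. The regulators lie mostly below 0, with a median of −0.27, and the other medians lie between −0.05 and 0.16.

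Markers of other cell types were read beside the globins. The summed macrophage and B cell markers were higher in every R274X library than in any control, and those of the other lists were not. The part of these cells in the globin result was not tested. Of 17 erythroblastic island macrophage markers, 7 were higher and 0 lower, with a median log2 difference of 2.03. The count was 15 with DESeq2 or with the robust option off and 14 with FPKM. Their summed level was 338 to 674 CPM in controls and 1404 to 2875 CPM in R274X libraries, and none of the 17 was at 0 in all libraries. Epor is on both this list and the lists of surface genes and progenitor markers. Of 15 B cell markers tested, 9 were higher and 0 lower (summed 1671 to 5479 CPM against 19558 to 35135 CPM), and 15 were higher with the robust option off or with FPKM. T and NK cell markers had 11 of 19 higher and 2 lower, with sums of 312 to 333 and 273 to 326 CPM. The neutrophil list had 0 of 13 in either direction, with sums of 19162 to 31980 CPM in controls and 14422 to 37572 CPM in R274X libraries. The megakaryocyte and platelet list had 0 of 9 higher and 2 lower, with sums of 169 to 229 and 111 to 153 CPM, and Gp1bb at 0 in all libraries. Genes of the LSK gate itself were detected, with Ly6a, which encodes Sca-1, higher by 0.80 and Kit lower by 0.71 on the log2 scale, and 7 of 10 listed genes lower. Among controls, the summed macrophage markers, B cell markers and globins were all lowest in control 2 and highest in control 3. The T and NK cell, neutrophil and megakaryocyte sums were not lowest in control 2. Among R274X libraries, the summed macrophage markers and globins were highest in R274X 1, and the summed B cell markers in R274X 2. Macrophage and B cell markers were lowest within that group in R274X 3, whereas globins were lowest within it in R274X 2.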

How the data were processed

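Bone marrow LSK RNA was sequenced in 3 control and 3 R274X libraries, after TruSeq library construction from total RNA, per the labels' protocols. For each Ensembl gene the deposited tables hold a read count (whole numbers) and an FPKM value, per the file headers. Alignment with Bowtie to mm8 is named in the submitters' processing notes, while the sources used here do not give the counting tool, its handling of reads that match several places, or strandedness. The lengths that follow from count over FPKM equalled, within 0.01%, the exon lengths of GENCODE M21 (GRCm38) for 94.4% to 94.6% of genes with over 200 counts, and for all 8 members, so coordinates are of GRCm38. Of 54532 identifiers, 54409 were matched to a symbol.

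Counts were fitted with edgeR 4.0.16 in R 4.3.3 (glmQLFit with the robust option, TMM, a minimum count of 10, adjusted p of 0.05 by Benjamini-Hochberg over all tested genes), on all 6 libraries with no covariates. The globin copies were also summed before the fit. The authors' deposited FPKM served for levels between genes and, with limma 3.58.1 on log2(FPKM + 1) (mean FPKM of at least 0.5), as an alternative. Single values were compared by exact permutation in SciPy 1.17.1. Other alternatives were DESeq2 1.42.0, limma-voom, other scalings, filters and pseudocounts, immunoglobulin genes removed, and leaving out each library. Quantile normalization of FPKM and leaving out each library for the lists were added after the data were seen. Ratios were not recomputed with libraries left out.

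Named genes were the members, up to 4 genes with the smallest p in each list, fixed genes such as Gata1 and Epor, and the 5 most like the globins or Klf1; some genes this rule names are not reported here. Members and lists were chosen with earlier results of these data known. Tal1, a factor, was taken out of the enzyme list after results were seen, because it had been placed there by mistake. The fit was tested on simulated data with 14385 genes for this comparison. It recovered 33 of 67 changes of 1.5-fold (49.3%), 42 of 64 of 2-fold (65.6%) and 51 of 65 of 3-fold (78.5%). It also called 12 genes that had been left unchanged. Far fewer genes were changed in the simulation than passed the threshold in the data, so these rates may not carry over.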

Additional observations from a re-analysis of the deposited data

How the results depend on the processing

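The number of the 8 genes past the threshold was 2. It was 4 with DESeq2 or with the robust option off, and 1 with FPKM and no filter. It was 3 with a mean count of at least 50, immunoglobulin genes removed, FPKM, or FPKM with a pseudocount of 0.1. With no count filter the 2 genes were Hba-a2 and Slc4a1. With a library left out, 0 to 2 genes passed the threshold. The number of all genes past it, 2621, was 1581 with FPKM, 1532 with a pseudocount of 0.1, 660 with FPKM and no filter, and 1218 to 3295 with a library left out. Summed alpha globin kept its direction but not its call with no count filter (1.24) and with FPKM and no filter (1.27), and its log2 difference was 1.07 to 1.44 with a library left out. Summed beta globin did so with limma-voom (1.30), upper-quartile scaling (1.27), no count filter (1.30) and FPKM with no filter (1.31), and ran from 1.13 to 1.51 with a library left out. The causes were not tested. Klf1 turned positive with limma-voom (0.0374), FPKM (0.0318), a pseudocount of 0.1 (0.0459), FPKM with no filter (0.0318), without control 2 (0.331) and without R274X 2 (0.0438), and ran from −0.359 to 0.331 with a library left out. Ermap turned negative without control 3 (−0.0316) and ran up to 0.469 without control 2. Hba-a1, Hba-a2, Hbb-bs, Hbb-bt, Slc4a1 and Epb42 kept their direction in all 18 alternatives each. No paired analysis was possible because the labels give the groups no shared replicate numbers. With 3 libraries a group, single calls rest on few values, and Epb42 had 37 to 72 counts a library.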
